A study of Homo sapiens with 6 samples.

Results

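The genes described here are the nuclear-encoded subunits of the respiratory chain and ATP synthase, together with the assembly factors that carry the same gene family names. They were chosen by name: a protein-coding gene counted as a member if its symbol begins with NDUFA, NDUFB, NDUFC, NDUFS, NDUFV, SDHA to SDHD, UQCR, CYC1, COX4I, COX5, COX6, COX7, COX8 or ATP5, and genes of the mitochondrial chromosome were left out. The rule found 97 members among 21494 genes. Of these, 45 belong to complex I, 8 to complex II, 10 to complex III, 14 to complex IV and 18 to complex V, and 2 are readthrough genes that join a member to its neighbor. The rule reads only names and chromosomes, but this gene family was picked for description with earlier results of these data known.

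The respiratory chain sits in the inner mitochondrial membrane and passes electrons from NADH and succinate to oxygen. Complex I oxidizes NADH, complex II oxidizes succinate, complex III hands electrons from ubiquinol to cytochrome c, complex IV reduces oxygen to water, and complex V, the ATP synthase, uses the proton gradient built by complexes I, III and IV to make ATP. Each complex other than complex II is assembled from subunits of both genomes, so that its nuclear genes, scattered over many chromosomes, have to be matched with the mitochondrial ones. Melanoma cells are known to differ in how far they rely on oxidative phosphorylation.

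RNA-seq was performed on 6 samples that the sample titles name G361, which the study describes as a melanoma cell line. A set of 3 samples, Control sh, expressed a control shRNA and carry the genotype WT in the labels, and the other 3, VprBP sh, expressed an shRNA against the coding region of VprBP, whose gene is DCAF1, and carry the genotype DCAF1 Knockdown. According to the methods of the study, the VprBP shRNA was delivered with a lentivirus and the cells were kept under puromycin until stable lines had formed, so the knockdown rests on 1 shRNA sequence and on long selected cultures. VprBP, also named DCAF1, is a substrate receptor of a Cullin 4 ubiquitin ligase and has been described as a histone H2A kinase. The comparison asks how its loss changes the transcriptome, and total counts ran from 18195949 to 26883948 per sample.

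The labels and the cells did not match at every point. The source field of the labels names LD611, not G361, and the melanocyte genes TYR, DCT, SOX10 and S100B had no entry in the table analysed, while MLANA and TYRP1 stayed between 0 and 4.42 normalized counts in the 6 samples. The other markers of this lineage, MITF and PMEL, were detected. Each VprBP sh sample held more MITF (203 to 263 normalized counts) than any control (160 to 186). PMEL lay between 30.1 and 43.6 across the 6 samples, with overlapping groups. Thus 4 of 8 melanocyte markers were in the table. Together they reached 8.46 to 9.85 CPM (counts scaled to a common library total) in Control sh and 11.9 to 15.2 CPM in VprBP sh. Of 11 urothelial markers 9 were in the table, and together they reached 4460 to 5038 CPM in Control sh and 1236 to 1394 CPM in VprBP sh. Within that list, TP63 spanned 8254 to 9998 normalized counts in the controls and 8.23 to 9.95 after VprBP shRNA. UPK1B spanned 574 to 690 in the controls and was at 0 in every VprBP sh sample, and GATA3 spanned 0 to 8.03 in the controls and 1372 to 1746 in VprBP sh. In bulk RNA fewer cells of a type and less RNA per cell cannot be told apart. The part of this marker difference in the changes given below was not tested, and a difference between the cultures other than DCAF1 cannot be told apart from the knockdown.

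DCAF1 itself was measured at 789, 961 and 830 normalized counts in Control sh and at 753, 502 and 477 in VprBP sh. The groups did not overlap, although the first VprBP sh sample lay just under the lowest control. The log2 fold change was -0.58 with a standard error (SE) of 0.17 and an adjusted p of 0.0125 in edgeR's quasi-likelihood test, and an exact two-sided permutation test over the samples gave p = 0.1, the smallest that 3 against 3 samples allow. With scaling by library size alone the change was -0.37 (adjusted p = 0.0851). Normalized counts are the deposited estimated counts scaled by upper quartile factors, fold changes are VprBP sh over Control sh on the log2 scale, and adjusted p stands for Benjamini-Hochberg adjustment over the 16758 genes tested.

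Across the 95 members that could be tested, 48 were higher and 22 were lower in VprBP sh at an adjusted p under 0.05. These are 50.5% and 23.2% of the members, beside 40.4% and 35.9% of all genes tested, and the remaining 25 were not called. The median log2 fold change was 0.29 for the members and 0.08 for all genes. Scaling by library size alone moved the median of all genes to 0.29 and the split of the members to 60 higher and 12 lower. A scaling factor shifts the fold changes of all genes by nearly the same amount, so the distance between both medians cannot test the scaling. The member median lay 0.21 above that of all genes under each scaling, and 0.18 to 0.26 above it over the filters and left-out samples. Past 2-fold, 14 members were higher and 1 was lower, which is 14.7% and 1.05% of the members beside 24.5% and 22.0% of all genes. The median absolute log2 fold change was 0.53 for the members and 0.92 for all genes. Most members are abundant transcripts, and among the 8352 other genes with mean normalized counts between 261 and 2959, the range that holds the middle of the members, the median absolute change was 0.71, with 19.9% more than 2-fold higher and 16.2% more than 2-fold lower. The samples of both groups did not overlap for 75 members, 78.9%, beside 79.5% of all genes.

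**Figure D1:**
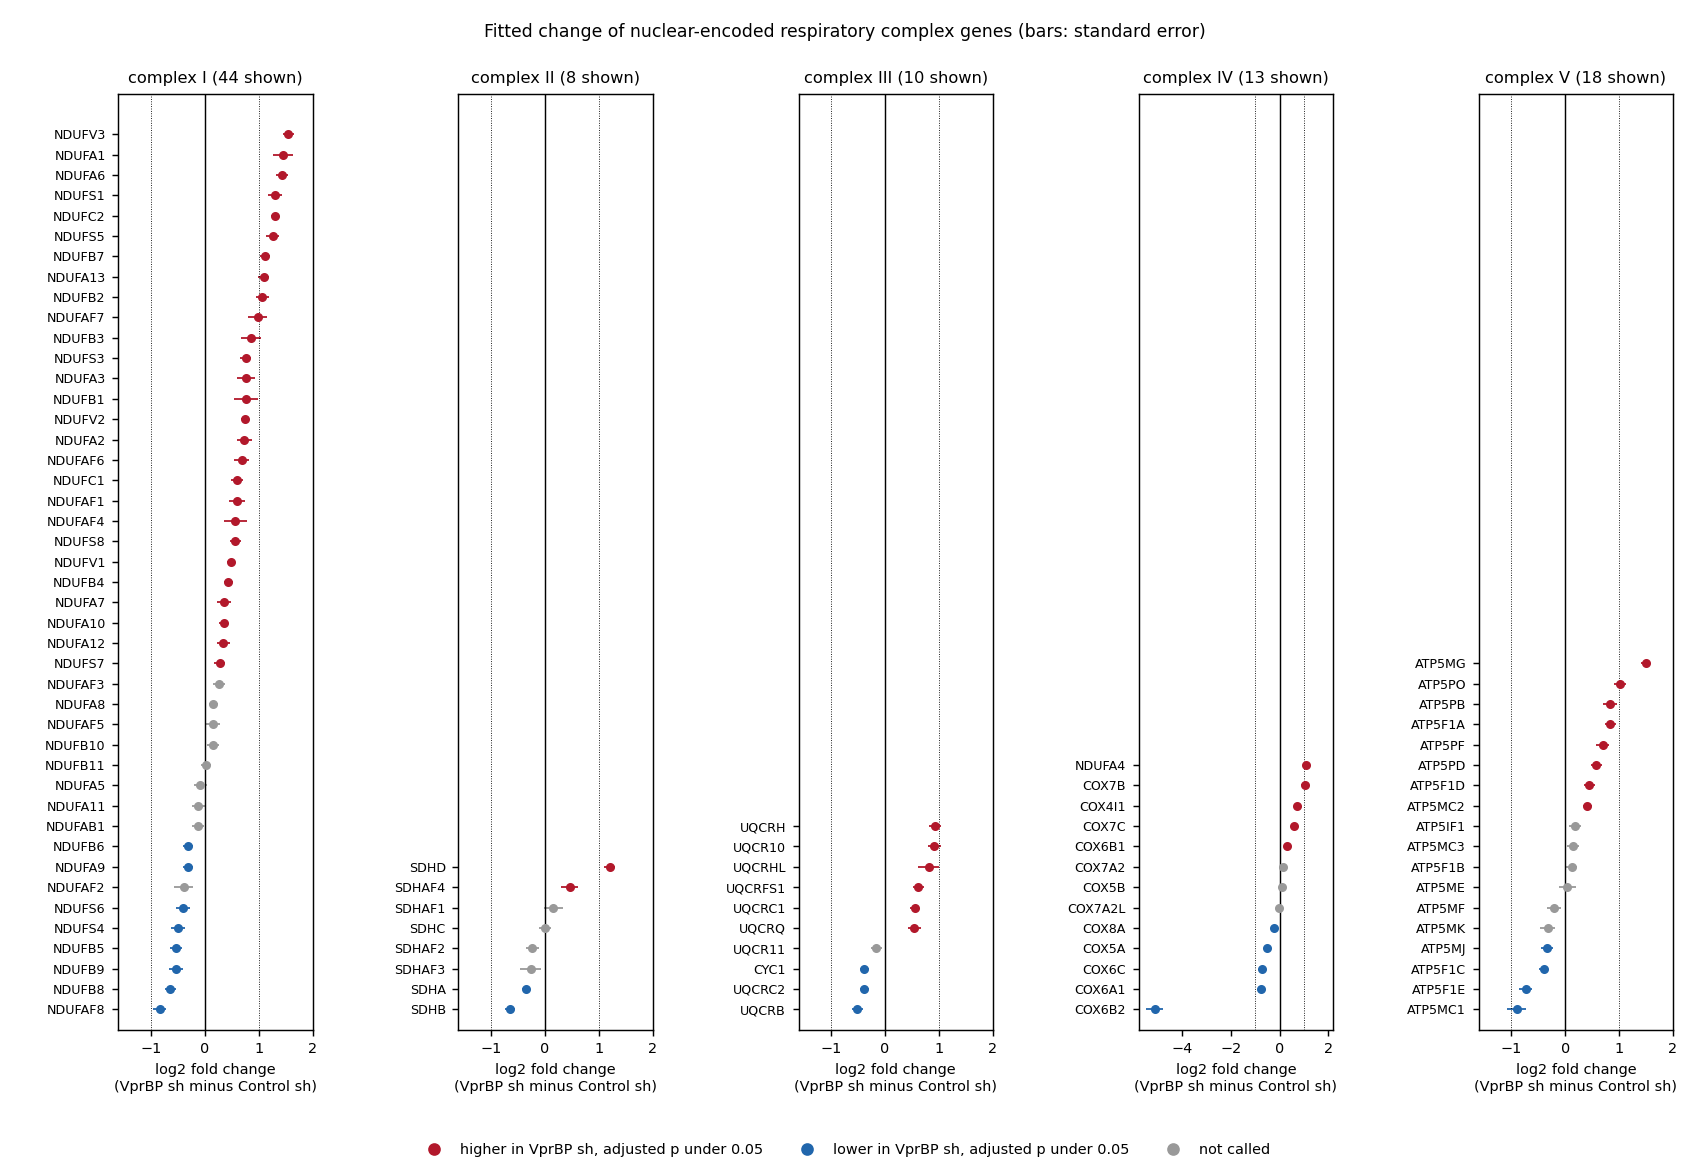
Fitted log2 fold change (VprBP sh minus Control sh, x axis) of the tested subunit and assembly genes shown, ordered by value within complexes I to V, with bars for the SE; colors mark the call at an adjusted p under 0.05 and dotted lines a 2-fold change. Complex I holds 27 genes that rose and 8 that fell, complex IV holds 5 of each, and COX6B2 at -5.13 stands far to the left of every other gene (the complex IV panel has a wider x axis).

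When the counts of all members were summed, the Control sh samples held 132279, 149539 and 155033 normalized counts and the VprBP sh samples 180635, 172681 and 176142. Every VprBP sh sample was above every Control sh sample, and the first control was the lowest. As a share of the library, the members took 0.56% to 0.67% in the controls and 0.85% to 0.90% after VprBP shRNA. By complex, the summed level of complex I was 1.36 times higher in VprBP sh, that of complex V 1.27 times, complex III 1.21 times and complex IV 1.07 times, and that of complex II was at 0.93 of the control. The samples of both groups overlapped for complexes II and IV. In CPM, that is, with scaling by library size alone, complex II was at 675 to 744 in the controls and 749 to 792 after VprBP shRNA, so its direction turns with the scaling. Complex II accordingly made up 12.1%, 11.6% and 11.2% of the members' counts in Control sh and 8.33%, 9.22% and 9.18% in VprBP sh, and complex I made up 29.8%, 29.3% and 29.6% in Control sh and 32.6%, 33.6% and 33.3% in VprBP sh. The share of complex IV was 18.4%, 17.5% and 17.9% in Control sh and 15.6%, 15.8% and 16.0% in VprBP sh. For the shares of complexes I, II and IV the samples of the groups did not overlap, and for that of complex V they did. SDHA alone held 10633 of the 16893 mean normalized counts of complex II in Control sh and 8314 of 15713 in VprBP sh. Much of the share of complex II is therefore that of SDHA. The shares of complex III, 12.3% to 12.5% in all 6 samples, lay within the spread of the replicates.

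**Figure D2:**
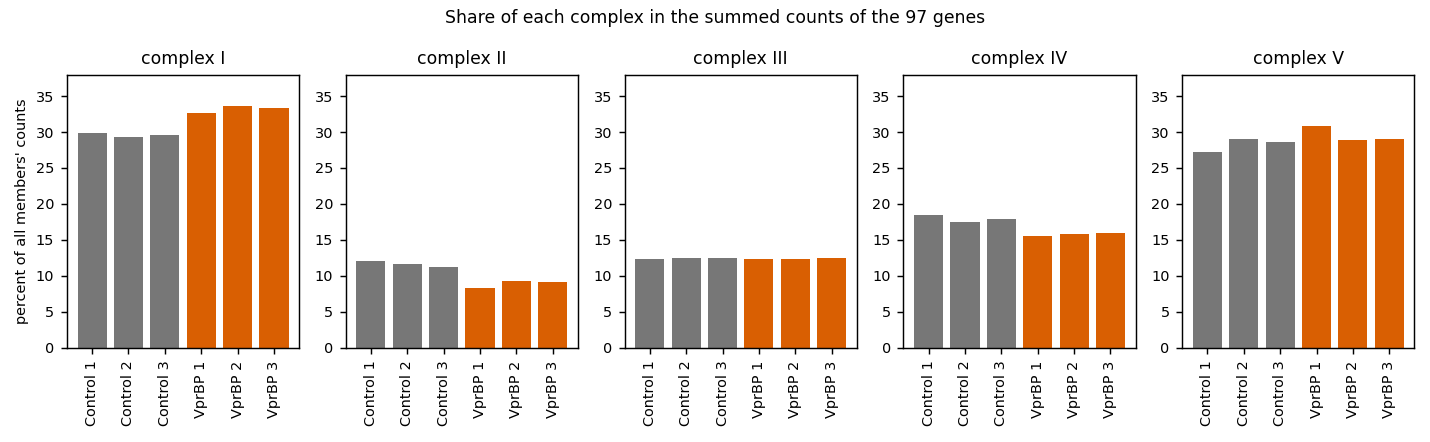
Percent of the summed counts of the 97 genes (y axis, from 0) that fell to each complex in each of the 6 samples (x axis; gray, Control sh; orange, VprBP sh). The share of complex II is 11.2% to 12.1% in gray bars and 8.33% to 9.22% in orange bars. Complex IV is also lower in orange bars, complex I shows the opposite order, and complex III is level.

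Promoters of respiratory genes are a textbook case of shared control, with binding sites for NRF1, for the ETS factor GABP and for YY1. The window from 250 bases before to 50 bases after the start of the gene, taken from RefSeq on GRCh38.p14, was found for 79 members and searched on both strands for short cores of these motifs. The NRF1 core GCATGCGC stood in 16 of the 79 windows, 20.3%, beside 3.27% of 27305 promoter windows of the same length. The ETS core CCGGAAGT stood in 11 windows, 13.9%, beside 4.44% of all promoters, and the YY1 core AAGATGGCG in 8 windows, 10.1%, beside 1.85%. The NRF1 core and its reverse complement can share bases, so overlapping matches were counted as 1 window. The NRF1 core was found before genes of both directions: 7 of 42 members that rose, 4 of 17 that fell and 5 of 20 that were not called. Its sequence context is shown for 4 members, 2 that fell and 2 that rose, because the same 8 letters occur in each. The lines give 60 bases centered on the match, 5′ to 3′ on the strand of the gene, outside any annotated exon, with the motif letters in capitals.

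COX6A1, chr12:120437869-120437928, plus strand, log2 fold change -0.78: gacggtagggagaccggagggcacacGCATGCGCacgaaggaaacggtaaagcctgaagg
SDHB, chr1:17054199-17054258, minus strand, log2 fold change -0.65: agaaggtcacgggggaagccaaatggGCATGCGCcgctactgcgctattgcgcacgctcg
ATP5MC2, chr12:53676090-53676149, minus strand, log2 fold change 0.41: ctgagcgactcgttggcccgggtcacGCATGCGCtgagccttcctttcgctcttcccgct
NDUFB4, chr3:120596153-120596212, plus strand, log2 fold change 0.44: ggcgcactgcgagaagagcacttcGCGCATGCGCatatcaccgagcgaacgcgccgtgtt

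In NDUFB4 the core and its reverse complement overlap and are both capitalized. A match is a description of these letters and says nothing of binding in these cells. Among the genes of the factors, NRF1 was at 326, 389 and 350 normalized counts in Control sh and 425, 397 and 402 in VprBP sh, a log2 difference of 0.20 that did not pass the test (adjusted p = 0.134). GABPA, the DNA-binding subunit of GABP, rose by 0.79 (SE 0.13), its partner GABPB1 fell by 0.59 (SE 0.14), and YY1 fell by 0.30 (SE 0.07). These 2 calls of GABP genes held under each scaling, whereas NRF1 passed the test with library size alone (0.41) and YY1 no longer did (-0.09). The list of transcription factors and coactivators of nuclear respiratory genes had 2 genes that rose and 7 that fell among 11 tested, with a median of -0.29 (3 and 3 with library size alone). With upper quartile factors these are 18.2% and 63.6%, beside 40.4% and 35.9% of all genes. The second riser was PPARGC1B, a coactivator of mitochondrial biogenesis, which was at 202, 199 and 207 normalized counts in Control sh and at 623, 525 and 548 in VprBP sh. Also lower were HIF1A (-1.11), ESRRA (-0.53), MYC (-0.77), EPAS1 (-0.29) and SP1 (-0.23), of which the last 3 lost the call with library size alone. MYC was at 3618, 3746 and 3691 normalized counts in Control sh and at 3557, 1477 and 1466 in VprBP sh. The first VprBP sh sample thus lay near the controls, and MYC also lost its call with DESeq2 (adjusted p = 0.0506).

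Of the 45 genes of complex I, 27 rose and 8 fell, 60.0% and 17.8% beside 40.4% and 35.9% of all genes, with a median log2 fold change of 0.44. In all, 9 of the 45 (20%) rose more than 2-fold and none fell that far, beside 24.5% and 22.0% of all genes. Most nuclear-encoded subunits of the core bind flavin, iron-sulfur clusters or quinone, and 6 of its 7 nuclear genes rose, with a median of 0.57. NDUFS1, the largest iron-sulfur subunit of the NADH-oxidizing arm, had normalized counts of 1023, 1284 and 1205 in Control sh and of 3404, 2627 and 2704 in VprBP sh. Its log2 fold change of 1.31 (SE 0.13) was the largest of the core. NDUFV1, which carries the flavin and the NADH site, went from 3342, 3374 and 3533 to 4727, 4759 and 4798, a difference of 0.48 (SE 0.07) with very close replicates. Its partner NDUFV2 went from 1435, 1512 and 1541 to 2443, 2531 and 2529. The log2 fold change of NDUFV2 was 0.74 (SE 0.07).

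In the quinone-reducing part of complex I, the genes changed less evenly. NDUFS3 was measured at 840, 966 and 992 normalized counts in Control sh and at 1547, 1672 and 1521 in VprBP sh, and rose by 0.76 on the log2 scale. NDUFS8, an iron-sulfur subunit, was at 1970, 1847 and 2030 in Control sh and at 2530, 3038 and 3118 in VprBP sh, and rose by 0.57. NDUFS7, which carries the last iron-sulfur cluster before quinone, was at 1130, 1247 and 1215 against 1265, 1588 and 1494. Its rise of 0.28 had an adjusted p of 0.0342 and was lost with TMM factors and with DESeq2.

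Accessory subunits surround this core and stabilize it. Among the 30 accessory genes 17 rose, 7 fell and 6 were not called. The shares that rose and fell were 56.7% and 23.3%, beside 40.4% and 35.9% of all genes. NDUFV3, a small subunit next to the flavin site, showed the largest rise of all members. It lies at chr21:42879644-42913304 of hg38 on the plus strand, and its normalized counts were 310 in each Control sh sample and 961, 874 and 882 in VprBP sh (log2 fold change 1.55, SE 0.10, adjusted p = 4.91e-07 in edgeR). NDUFA1, a subunit of the membrane arm encoded on chromosome X, was at 298, 390 and 452 in Control sh and at 1270, 871 and 983 in VprBP sh. NDUFA6, which holds the acyl carrier protein in complex I, was at 420 ± 51.0 normalized counts (SD, n = 3) in Control sh and 1141 ± 28.7 in VprBP sh, with 1143, 1169 and 1111 in the single samples. They rose by 1.45 (SE 0.18) and 1.44 (SE 0.11), although the replicates of NDUFA1 scattered more.

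NDUFC2, a membrane arm subunit, went from 952, 991 and 1053 normalized counts to 2481, 2433 and 2470, a log2 fold change of 1.30. NDUFS5, which lies on the intermembrane space side, went from 1544, 1807 and 1897 to 4875, 3746 and 3940, and NDUFB7, on the same side, from 945, 1020 and 963 to 1936, 2217 and 2229. Their log2 fold changes were 1.26 and 1.12. NDUFA13, also known as GRIM-19, went from 1088, 1187 and 1299 to 2209, 2701 and 2711 (1.09), and NDUFB2 from 537, 593 and 717 to 1176, 1316 and 1382 (1.07). The groups did not overlap in any of these genes, but the genes were named for passing the test and 2-fold, which favors separation. Of all genes tested, 79.5% did not overlap. NDUFC2, NDUFA13 and NDUFB2 hold fractional counts and overlap coding genes on the same strand (NDUFC2-KCTD14, YJEFN3 among others, and ADCK2), so their reads may be shared.

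The accessory genes that fell did so by smaller amounts. NDUFB8, whose protein is often used as a readout of assembled complex I, had 1187, 1401 and 1470 normalized counts in Control sh and 914, 840 and 851 in VprBP sh, a log2 fold change of -0.64 (SE 0.10). The others were NDUFB5 and NDUFB9 at -0.53, NDUFS4 at -0.50, NDUFS6 at -0.40 and NDUFA9 and NDUFB6 at -0.31. With library size alone the calls of NDUFS4 (-0.29) and NDUFA9 (-0.09), among others, were lost. Accessory genes that were not called were NDUFA5, NDUFA8, NDUFA11, NDUFAB1, NDUFB10 and NDUFB11, with differences from -0.13 to 0.16.

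The NDUFAF genes encode factors that help to build complex I and leave it again. Of these 8 genes 4 rose (NDUFAF1, NDUFAF4, NDUFAF6 and NDUFAF7), and 1 fell. NDUFAF7, a methyltransferase of the mitochondrial matrix, was at 154, 125 and 156 normalized counts in Control sh and at 344, 251 and 264 in VprBP sh (0.98, SE 0.17). NDUFAF8 was at 537, 617 and 612 against 376, 320 and 299, the largest decrease of complex I at -0.83 (SE 0.12). Other assembly factors of complex I, which the name rule did not take in, gave 6 genes that rose and 2 that fell among 12 tested. They included FOXRED1 (1.71), TMEM126B (1.43) and TMEM126A (1.06) among the risers, whereas NUBPL, which delivers iron-sulfur clusters to complex I, fell by 1.07 on the log2 scale.

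In complex II the 4 subunit genes went separate ways. SDHA, the flavoprotein that oxidizes succinate, had 10508, 10736 and 10657 normalized counts in Control sh and 7533, 8653 and 8758 in VprBP sh (log2 fold change -0.35, SE 0.08, a call that was lost with library size alone). SDHB, the iron-sulfur subunit, had 1637, 1644 and 1762 against 1156, 1040 and 1029, the largest decrease of the complex at -0.65 (SE 0.09). SDHC, 1 of the membrane anchors, had 1517, 1909 and 2016 against 1786, 1788 and 1870, with overlapping samples and a difference of 0.00 (SE 0.11). SDHD, the other anchor, had 1202, 1553 and 1418 against 3395, 3078 and 3116. Its log2 fold change of 1.20 (SE 0.10) made it a gene of the more than 2-fold group, at chr11:112086824-112120016 on the plus strand, where it overlaps a coding gene on the same strand. Among the factors that assemble complex II, SDHAF4 rose by 0.46 (SE 0.16), a call that was lost with TMM factors, DESeq2 and the replicate block, and SDHAF1, SDHAF2 and SDHAF3 were not called, with differences of 0.16, -0.23 and -0.26. By calls the complex had 2 genes that rose and 2 that fell, 25.0% each, beside 40.4% and 35.9% of all genes. Its median was -0.12, or 0.09 with library size alone. It was -0.22 without Control sh 1, -0.03 without Control sh 3, -0.07 without VprBP sh 1, and -0.08 without either Control sh 2 or VprBP sh 3.

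In complex III 6 of 10 genes rose and 3 fell, 60.0% and 30.0% beside 40.4% and 35.9% of all genes. The median was 0.55. No gene passed 2-fold, beside 24.5% of all genes higher and 22.0% lower by that much. The electron-carrying subunits moved in opposite directions. UQCRFS1, the Rieske iron-sulfur protein, had 1840, 2327 and 2315 normalized counts in Control sh and 3487, 3150 and 3362 in VprBP sh, a rise of 0.62 (SE 0.10). CYC1, cytochrome c1, which takes the electrons from the Rieske protein, had 3040, 3407 and 3379 against 2430, 2664 and 2459 and fell by 0.38 (SE 0.08), a call that was lost with library size alone. The core proteins, which form the matrix side of the complex, were split as well, since UQCRC1 rose by 0.55 and UQCRC2 fell by 0.38, the latter a call that was lost with library size alone (-0.17) and with samples 2 and 3 summed (-0.35).

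UQCRH, the hinge protein that holds cytochrome c1, showed the largest rise of complex III. It had 1790, 1930 and 2191 normalized counts in Control sh and 4205, 3374 and 3652 in VprBP sh (0.93, SE 0.11). Its near copy UQCRHL, a gene without introns, had 48.2, 50.6 and 46.0 against 84.0, 85.4 and 85.0, and rose by 0.81 (SE 0.19), but reads of such a pair can be assigned to either gene and both hold fractional values. UQCRB, which helps to form a quinone site, was the largest decrease, from 1281, 1322 and 1413 to 1055, 861 and 911 (-0.51, SE 0.10). UQCR10 and UQCRQ rose by 0.91 and 0.54, and UQCR11 was not called (-0.16, adjusted p = 0.176). Among the assembly factors of complex III, BCS1L, the translocase that inserts the Rieske protein, went from 188, 264 and 240 to 785, 756 and 755 (1.73, SE 0.13), and UQCC1, needed for the synthesis of cytochrome b, went from 741, 958 and 851 to 246, 195 and 204 (-1.98, SE 0.14). Of the 6 assembly genes tested, 4 rose and 1 fell, 66.7% and 16.7% beside 40.4% and 35.9% of all genes.

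Complex IV had as many genes that rose as genes that fell, 5 each among 13 tested. The share of 38.5% each was near the 40.4% and 35.9% of all genes. The median was 0.12, or 0.04 without VprBP sh 3. The catalytic subunits of this complex are mitochondrially encoded, and all its nuclear genes are accessory. NDUFA4, once placed in complex I and now counted as a subunit of complex IV, went from 964, 1159 and 1181 normalized counts to 2496, 2272 and 2224 (1.08, SE 0.10). COX7B, on chromosome X, went from 529, 744 and 791 to 1647, 1229 and 1379 (1.04, SE 0.16). COX4I1, the subunit at which ATP regulates the enzyme, rose by 0.71, COX7C by 0.60 and COX6B1 by 0.29, the last with an adjusted p of 0.0322 that was lost with TMM factors and DESeq2. On the other side COX6A1 went from 3908, 3676 and 3907 to 2185, 2190 and 2301 (-0.78, SE 0.07), with close replicates in both groups. COX6C fell by 0.72, COX5A by 0.53 and COX8A by 0.23, while COX5B, COX7A2 and the supercomplex factor COX7A2L were not called, with differences of 0.12, 0.13 and -0.03.

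The one large decrease among all members was that of an isoform gene. COX6B2, the testis form of COX6B1, had counts of 105, 75 and 115 in Control sh and of 2, 3 and 4 in VprBP sh. In total 295 counts stood against 9, a ratio of 36.5 after scaling with a 95% interval of 19.0 to 80.7 that covers counting error only. The fitted log2 fold change was -5.13 (SE 0.35, adjusted p = 7.45e-07 in edgeR), and it depends on how the model treats such low counts. The gene lies at chr19:55349306-55354719 on the minus strand and overlaps the coding gene ENSG00000267706 on that strand. Its ubiquitous counterpart COX6B1 was at 1516, 1786 and 2016 normalized counts in Control sh and 2077, 2168 and 2270 in VprBP sh. The other isoform gene, NDUFA4L2, a form induced by low oxygen, had only 2, 10 and 5 counts against 5, 4 and 4 and was left out by the filter on low counts. COX4I2, COX6A2, COX7A1, COX7B2 and COX8C, the other tissue forms, had no entry in the table analysed.

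**Figure D3:**
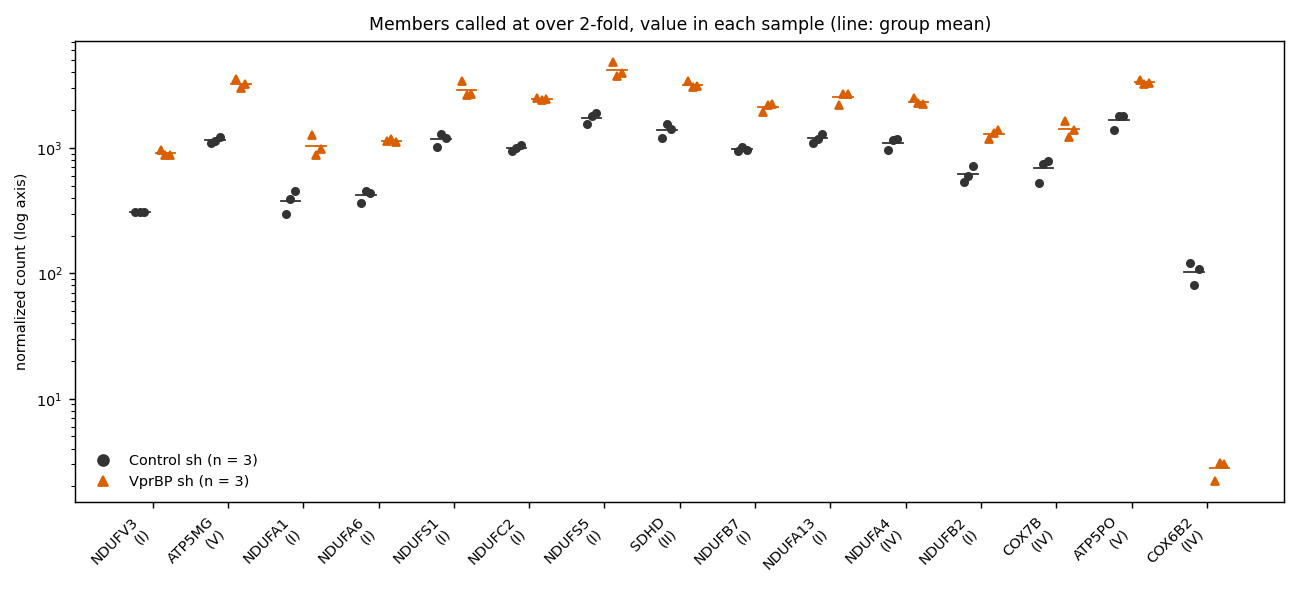
Normalized count (log axis) in each Control sh sample (circles) and each VprBP sh sample (triangles) for the 15 members that changed more than 2-fold, with a line at each group mean and the complex in brackets. In all 15 genes the groups are apart, which the selection of called genes favors, and COX6B2 is the only one in which Control sh is higher.

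The ATP synthase, complex V, had 8 genes that rose and 4 that fell among 18. These are 44.4% and 22.2%, beside 40.4% and 35.9% of all genes. The median was 0.16, or 0.06 without Control sh 1. The subunits of the catalytic F1 head were uneven. ATP5F1A, the alpha subunit, had 4764, 5603 and 5829 normalized counts in Control sh and 10353, 9409 and 9322 in VprBP sh, a rise of 0.84 (SE 0.10). ATP5F1B, the beta subunit that carries the catalytic sites, had 9753, 11795 and 11804 against 12947, 11515 and 11726, with overlapping groups and a difference of 0.12 (adjusted p = 0.297). The central stalk moved both ways. ATP5F1C (gamma) went from 2658, 3089 and 3048 to 2406, 2142 and 2128 and fell by 0.40, ATP5F1D (delta) went from 1452, 1486 and 1424 to 1691, 2123 and 2147 and rose by 0.45, and ATP5F1E (epsilon) went from 1385, 1577 and 1815 to 1039, 861 and 990 and fell by 0.73. The call of ATP5F1C was lost with library size alone (-0.19).

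The ring of c subunits, through which protons pass, is built from 1 mature protein that is encoded by several genes. ATP5MC1 had 1164, 1901 and 1802 normalized counts in Control sh and 958, 827 and 822 in VprBP sh, the largest decrease of complex V at -0.90 (SE 0.17). Without the low first control sample its fold change passed 2-fold (-1.09). ATP5MC2 had 1329, 1352 and 1455 against 1827, 1754 and 1908 and rose by 0.41 (SE 0.08). ATP5MC3 had 2377, 3055 and 2985 against 3368, 2868 and 3018 and was not called (0.14, adjusted p = 0.288). The 3 genes of this protein thus gave 1 decrease, 1 increase and 1 difference within the spread of the replicates.

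The genes of the peripheral stalk, which holds the head in place, all rose. ATP5PO went from 1389, 1794 and 1807 normalized counts to 3476, 3247 and 3308 (1.01, SE 0.11), ATP5PB rose by 0.84, ATP5PF by 0.70 and ATP5PD by 0.58. ATP5PO stayed just above 2-fold and fell under it with TMM factors, DESeq2, no filter or without the first sample of either group. ATP5MG, a membrane subunit at the dimer interface, was the strongest riser of complex V. It lies at chr11:118401346-118433278, overlaps a coding gene on the same strand, and went from 1100, 1143 and 1218 to 3524, 3002 and 3219 (1.49, SE 0.09, adjusted p = 3.33e-07 in edgeR). The other membrane genes were lower or not called, with ATP5MJ at -0.33, ATP5MK at -0.32, ATP5MF at -0.20 and ATP5ME at 0.04, of which only ATP5MJ passed the test. ATP5IF1, the inhibitor of ATP hydrolysis, was not called (0.18, adjusted p = 0.138). ATPAF1, which assembles the beta subunit, and ATPAF2, which assembles the alpha subunit, went in opposite directions at 0.99 and -1.02.

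The partner subunits of these complexes come from the mitochondrial chromosome. Of 13 mitochondrially encoded subunits 12 rose and none fell, with a median of 0.75 (10 rose with TMM factors and with DESeq2). With upper quartile factors 92.3% rose, beside 40.4% of all genes. MT-CO1, the catalytic subunit of complex IV, was at 127616, 102551 and 100365 normalized counts in Control sh and at 243252, 255395 and 276635 in VprBP sh (1.23, SE 0.11). MT-ND1 rose by 1.20, MT-ND5 by 1.17 and MT-CYB by 0.92, and MT-ND3 was not called (0.12, adjusted p = 0.591). All counts of the mitochondrial chromosome together made up 1.96% to 1.98% of the library in the controls and 4.10% to 4.48% after VprBP shRNA. Among 12 genes that maintain and express the mitochondrial genome 1 rose (POLG, 0.31) and 6 fell, with a median of -0.32, including TEFM (-1.19) and POLG2 (-1.01). TFAM was called at -0.35 with overlapping groups, and the call was lost with library size alone (-0.14, adjusted p = 0.343). With library size alone 2 rose and 4 fell, and with TMM factors none rose and 10 fell.

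Among cytochrome c and the enzymes of coenzyme Q synthesis, 9 of 14 genes rose and 3 fell, with a median of 0.89. COQ9, a lipid-binding protein of that pathway, went from 344, 441 and 409 normalized counts to 2060, 1748 and 1827 (2.24, SE 0.12), and CYCS, cytochrome c, went from 1769, 2095 and 2251 to 4544, 3091 and 2947 (0.79, SE 0.17). COQ3, COQ5 and COQ7 fell by 0.45, 0.43 and 0.56, the first and second of which lost the call with library size alone. Among 23 assembly factors of complex IV, 11 rose and 5 fell, with COX20, a chaperone of the MT-CO2 protein, at 2.55 and PET117 at -1.31. These lists were read beside the same background of 40.4% and 35.9%, and no test of a list was made.

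Members were also set beside the genes around them. For each of the 94 members other than the readthrough genes, the median log2 fold change of all other tested genes within 5 Mb was taken, with at least 15 neighbors. Over the 94 members Pearson's r between a member's own change and this median was 0.47 and Spearman's rho was 0.68. This is a correlation across genes of the same 6 libraries, members on 1 chromosome share neighbors, and genes are not independent replicates, so no p-value is given. The 43 members whose neighborhood lay above the median of all genes had a median change of 0.74, and the 51 others had a median of -0.20. ATP5MG and SDHD, both on chromosome 11, had neighborhood medians of 1.31 and 1.32. NDUFV3, NDUFA1 and NDUFS1 had neighborhood medians of 0.93, 1.00 and 1.05. On chromosome 8, where 4 of 5 members fell and 1 rose, the members' median was -0.51 and that of 559 other genes -0.70. The signs were also shared on chromosome 19 (members 0.32, other genes 0.55), chromosome 2 (0.35 and 0.39), chromosome 1 (0.50 and 0.26) and chromosome 11 (0.67 and 0.25). They differed on chromosome 5 (members -0.35, other genes 0.21), chromosome 7 (-0.08 and 0.30) and chromosome 12 (0.12 and -0.28). Chromosomes with fewer tested members were not summarized. COX6B2, at -5.13, had a neighborhood median of 0.57.

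**Figure D4:**
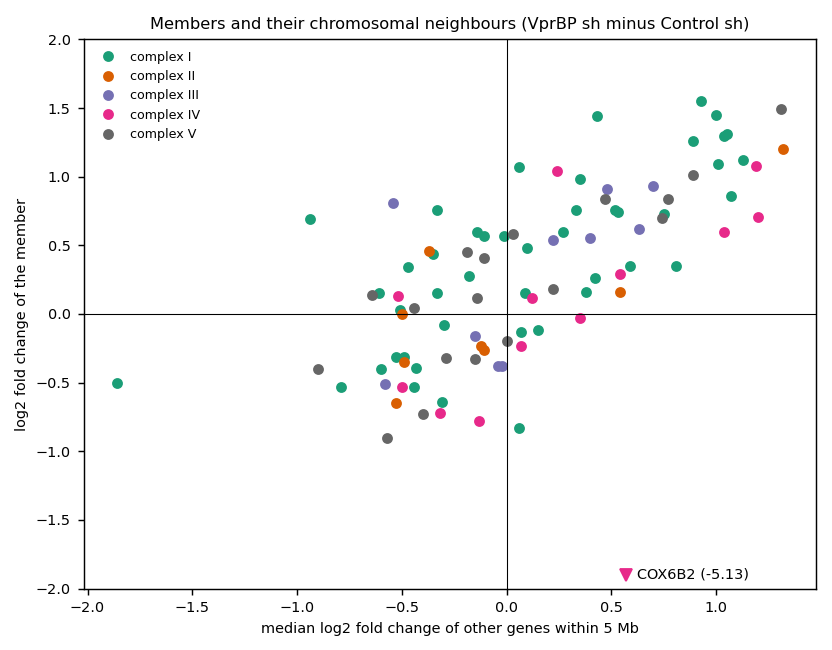
Log2 fold change of each of 94 members (y axis, VprBP sh minus Control sh) against the median log2 fold change of other genes within 5 Mb (x axis), colored by complex. Points run from lower left to upper right (Spearman's rho 0.68), and COX6B2, drawn at the lower edge, has its value of -5.13 beside it.

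Several values carry limits of counting and annotation. Of the 97 members, 60 overlap another annotated gene, 36 of them on the same strand, and 41 hold fractional counts, as arise when reads are divided between genes. On the same strand 22 members overlap a coding gene. Besides those named above, these include the called genes NDUFS3, NDUFB8, SDHA, COX6A1, ATP5PO, NDUFA7, NDUFA9, NDUFB5 and NDUFAF6. NDUFA11, SDHAF2, UQCR11 and ATP5MF, which were not called, also overlap a coding gene there. The 55 tested members with whole counts in all samples gave 24 genes that rose and 13 that fell. These are 43.6% and 23.6%, beside 50.5% and 23.2% of all tested members and 40.4% and 35.9% of all genes. Their median was 0.16, beside 0.29 for all members and 0.08 for all genes, so their rises lay nearer to the background. Of these 55, 6 (10.9%) rose more than 2-fold, beside 24.5% of all genes. Calls near the threshold did not hold under every left-out sample, and leaving 1 out also leaves fewer samples for the test. When 1 sample was left out, 10 called members lost the call, with a highest adjusted p of 0.157 for NDUFS7 (any sample but VprBP sh 1), 0.106 for COX6B1 (Control sh 1 or 2, VprBP sh 2 or 3), 0.107 for COX8A (sample 2 or 3 of either group), 0.095 for NDUFA7 (Control sh 1 or 3, VprBP sh 2 or 3) and 0.0923 for NDUFAF4 (any Control sh sample, VprBP sh 1). The same held for NDUFA12 (0.0991, Control sh 2), NDUFS6 (0.0882, Control sh 2 or 3, VprBP sh 1), NDUFB6 (0.0851, Control sh 2 or 3, VprBP sh 3), ATP5MJ (0.0806, Control sh 3, VprBP sh 2 or 3) and SDHAF4 (0.0769, Control sh 2 or 3, VprBP sh 3). Without Control sh 1, NDUFB2, COX7B, NDUFA4 and ATP5PO stayed called but fell under 2-fold, as did COX7B and ATP5PO without VprBP sh 1. Of the readthrough genes, ATP5MF-PTCD1 was not called (0.40, adjusted p = 0.0561) and NDUFC2-KCTD14 was too low to be tested. Whether the replicates came from separate infections is not stated, so the p-values measure only the spread between these samples, and samples 2 and 3 of each group were closer to each other (chi-square per degree of freedom 2.50 in Control sh and 2.36 in VprBP sh) than to sample 1 (17.6 to 29.1).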

How the data were processed

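Gene-level values came from 6 RNA-seq libraries, 3 Control sh and 3 VprBP sh. Per the methods and labels, single-end reads were mapped to hg38 with STAR and summarized by gene, and Partek software was used. The authors deposited these as estimated counts, 1 column per sample, before any scaling. The kit is SMARTER in the labels and a strand-specific KAPA kit in the methods, and whether strand was used for counting is not stated. Of the values 64.2% are whole within 0.001, every gene has a sum of at least 10 counts over the samples, and gene bounds match GENCODE 44 for 95 members. Because reads can be divided between overlapping genes or near copies, such genes are less certain.

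Values were rounded to whole counts, as the planned test needs counts. edgeR 4.0.16 in R 4.3.3 was used with upper quartile factors (quantile 0.75), filterByExpr (minimum count 10), its quasi-likelihood test on group alone and Benjamini-Hochberg adjustment over 16758 genes. It stands in for Partek's Gene Specific Algorithm. Calls were made at an adjusted p under 0.05, and also at a fold change over 2. The SE is the log2 fold change over the square root of F. The fit was also run on simulated counts with few changed genes, balanced in direction, and with independent replicates. Far more genes were called in these data, so that run does not test the scaling used here. Other steps used Python 3.11.15, pandas 2.3.3 and scipy 1.17.1.

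Members are named by complex and role, except 1 whose single values are not reported here. It is counted in the sums and medians. Values in each sample are given for members past 2-fold, the largest increase and decrease of each complex, core subunits, paralogs and members of very low counts. The members and gene lists were chosen with earlier results of these data known. Alternatives were TMM factors, library size alone, DESeq2 1.42.0, other filters, a replicate block, each sample left out, and samples 2 and 3 of each group summed. Intervals cover counting error only.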

Additional observations from a re-analysis of the deposited data

How the results depend on the processing

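Of the 70 members called at an adjusted p under 0.05, 53 kept call and direction in all 13 alternatives, and no called member changed direction. The more than 2-fold increases numbered 9 with TMM factors and 9 with DESeq2, where NDUFB2, COX7B, NDUFA13, NDUFA4 and ATP5PO stayed called but fell under 2-fold, 21 with library size alone, and 11 to 17 when 1 sample was left out. The more than 2-fold decreases numbered 2 with DESeq2, 0 with at least 10 counts in every sample (COX6B2 is then not tested) and 1 to 2 when 1 sample was left out. Members lower at any fold numbered 12 with library size alone and 14 with samples 2 and 3 summed. The median of all members was 0.20 with TMM factors, 0.50 with library size alone and 0.17 with DESeq2. For complex I it was 0.34, 0.65 and 0.31 in that order, with a range of 0.36 to 0.48 over left-out samples. For complex IV it was 0.03, 0.33 and 0.00, with 0.02 without a filter and 0.04 to 0.15 over left-out samples. With library size alone it was 0.09 for complex II, 0.76 for complex III and 0.37 for complex V, and with DESeq2 0.43 for complex III and 0.04 for complex V. Over left-out samples it ran from -0.22 to -0.03 for complex II and from 0.06 to 0.22 for complex V. DCAF1 lost its call with library size alone (-0.37) and with samples 2 and 3 summed (-0.46). The median of all genes moved to 0.29 with library size alone, to -0.01 with TMM factors and to -0.04 with DESeq2, and the causes were not tested beyond that.

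Members that changed direction were all uncalled: with library size alone NDUFAB1 (0.08), COX7A2L (0.18), UQCR11 (0.05), NDUFA5 (0.13), NDUFA11 (0.09) and ATP5MF (0.01), with TMM factors NDUFB11 (-0.07) and ATP5ME (-0.06), and with DESeq2 NDUFB11 (-0.09) and ATP5ME (-0.08). Over left-out samples NDUFB11 ran from -0.02 to 0.08, ATP5ME from -0.04 to 0.19 and COX7A2L from -0.08 to 0.01. The replicate numbers did not pair the samples (correlations of deviations of -0.145, -0.029 and -0.106), and a replicate block gave 45 members higher and 20 lower, with 14 and 1 past 2-fold. Library size alone took the call from 10 members and samples 2 and 3 summed from 14. The lists of genes around the complexes were refitted with TMM factors, library size alone and DESeq2, an alternative added after seeing the data. No level per gene length is reported, so the alternative for gene length was not run.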
